A study of Homo sapiens with 6 samples.

Results

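The histone genes comprised 64 of the 27918 rows of the deposited expression table, taken by symbol: every row with a gene name beginning HIST1H to HIST4H, H2AF, H3F3 or H1F. Of these, 45 rows belonged to the HIST clusters (36 HIST1, 6 HIST2, 2 HIST3 and 1 HIST4) and 19 were histone variant rows. By their annotation, 42 of the HIST rows and 15 of the variant rows were protein-coding. The others were 3 HIST pseudogenes, 3 pseudogenes of H2AFZ and the antisense RNA H1FX-AS1. The table holds poly(A)-selected RNA-seq of HCT-116, a widely used human line derived from a colorectal carcinoma. The cells were transfected with a control GapmeR (GapNC, 3 libraries) or with a GapmeR against the long noncoding RNA CASC9 (GapC9, 3 libraries). A GapmeR is an antisense oligonucleotide that directs RNase H to the RNA it pairs with, and the 2 groups shared cell line and transfection and differed by the GapmeR. One GapmeR against CASC9 was used, the labels give no dose or time, and no source says whether the libraries came from separate cultures, so p-values measure the spread between these libraries only.

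Histone proteins package DNA into nucleosomes, each made of H2A, H2B, H3 and H4 around which DNA is wound, with H1 bound to the linker. The HIST cluster genes are replication-dependent. Their mRNAs are made in S phase and end at a conserved stem-loop without a poly(A) tail, where SLBP and the U7 snRNP guide the cut and CPSF3 makes it. Variant histones such as those of H2AFZ, H3F3A and H3F3B are made throughout the cell cycle from ordinary polyadenylated mRNAs. CPSF3, also called CPSF73, is the endonuclease of both reactions and was studied as a protein partner of CASC9 in the work that produced these libraries.

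The stem-loop shows where the HIST mRNAs would normally end, and thus which part of an annotated transcript a poly(A) library can reach only through longer or uncut forms. The sequences below come from the GENCODE v29 transcripts of GRCh38 and carry the 16-base stem-loop in capitals, with up to 7 bases on either side in lower case. They are the members with a stem-loop whose values are described in most detail, read 5′ to 3′ on the RNA strand. On GRCh38 the capitals lie at chr6:26124669-26124684 (plus strand) for HIST1H2AC, chr6:26205001-26205016 (plus) for HIST1H4E, chr6:26225596-26225611 (plus) for HIST1H3E, chr1:149886188-149886203 (minus) for HIST2H2BE, chr1:228457369-228457384 (minus) for HIST3H2A and chr11:119094898-119094913 (minus) for H2AFX, all in the 3′ UTR.
HIST1H2AC: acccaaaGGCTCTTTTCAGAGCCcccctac
HIST1H4E: aatcaaaGGCCCTTTTCAGGGCCgcccaca
HIST1H3E: atccaaaGGCTCTTCTCAGAGCCaacca
HIST2H2BE: ctccaaaGGCTCTTTTCAGAGCCacccacc
HIST3H2A: acataaaGGCTCTTTTCAGAGCCacctact
H2AFX: ccacaaaGGCCCTTTTAAGGGCCaccaccg

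The histone stem-loop pattern was found in an annotated transcript of 24 of the 42 protein-coding HIST rows (57.1%), in 0 of the 3 HIST pseudogenes and in 1 of the 15 protein-coding variant rows (6.67%). That variant was H2AFX, whose product marks DNA breaks when phosphorylated. Among all 19922 protein-coding genes of the annotation, 58 (0.291%) held the pattern. Of the HIST rows, 13 could not hold it, because their annotated model ran from the start to the stop codon only. In 20 of the HIST rows an annotated transcript continued more than 100 bases past the stem-loop, by up to 1917 bases in HIST3H2BB. For HIST1H2AC the shortest continuation was 1114 bases, for HIST1H4E 1022, for HIST2H2BE 1729, for HIST3H2A 390 and for H2AFX 821, whereas the shorter HIST1H3E transcript ended 5 bases past it. The HIST1H3E row of the expression table lists only the longer transcript, of 2679 bases, which continued 1862 bases past the stem-loop.

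Upstream, the 300 bases around the RefSeq start (250 before, 50 after; GRCh38.p14) were searched on both strands for the CCAAT box bound by NFY proteins, the TATA box letters TATAAA, and the octamer ATTTGCAT bound by POU factors such as POU2F1. RefSeq listed 36 of the HIST rows and 13 of the variant rows. CCAAT was present in 83.3% of the HIST promoters and 76.9% of the variant promoters, against 34.6% of all 35116 listed. TATAAA was present in 63.9% and 30.8%, against 11.5%. ATTTGCAT was present in 41.7% of HIST promoters and 7.69% of variant promoters, against 1.77%. Within the clusters it was found in 5 of 7 H2A and 10 of 14 H2B promoters and in none of the 3 H1, 4 H3 and 8 H4 promoters searched. CCAAT was found in all H1, H2A, H2B and H3 promoters but in 2 of 8 H4 promoters (25%). TATAAA was found in 2 of 3 H1, 5 of 7 H2A, 10 of 14 H2B, 4 of 4 H3 and 2 of 8 H4 promoters. These letters are a description of the windows and not evidence of binding.

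Values are FPKM, fragments per kilobase of transcript per mega (M) mapped fragments, which adjusts for transcript length. Poly(A) selection reaches HIST mRNAs only through longer or uncut forms, so HIST values cannot be compared with variant values as mRNA levels. Taking the most frequent spacing of low values as 1 fragment, the libraries held 22.8 to 24.4 M (mega) fragments. On a HIST row of median length (753 bases) 1 fragment was then worth 0.0544 to 0.0583 FPKM, so that many HIST values rest on very few fragments. The targeted RNA, CASC9, had values of 0, 0.0108 and 0 FPKM in the GapNC libraries and 0.0528, 0.107 and 0 in the GapC9 libraries. It was therefore not lower in the libraries labelled GapC9, and every direction below rests on the labels. Over 10117 rows, a row's GC content was rank-correlated (Spearman's rho) with its departure from the row mean. The correlation was 0.618, 0.0132 and −0.101 in the GapNC libraries and 0.0216, −0.339 and −0.384 in the GapC9 libraries. GapNC replicate 1 thus stood apart, and GapC9 replicates 2 and 3 leaned the other way. Part of the GC trend therefore cannot be told apart from the group. Of 8 epithelial markers, KRT8, KRT18, KRT19 and EPCAM stood at 62.3 to 480.2 FPKM in all 6 libraries, CDH1 at 8.43 to 14.3 and CDX2 at 1.59 to 3.79, while VIL1 and CDX1 were at or near 0 and did not exceed 0.0481. Of 9 markers of other cells, PTPRC, CD3E, CDH5, PECAM1, PDGFRB and COL1A2 did not exceed 0.0858. COL1A1 and COL3A1 stood at 1.06 to 4.13 FPKM, and the row that holds CD68, at 49.8 to 55.7, joins it to other genes and cannot be read for it. Of the 6 epithelial and 3 other-cell markers tested, 0 were called (limma, adjusted p; 1 and 0 had an unadjusted p under 0.05). Over all rows tested, 1.89% were called higher and 5.10% lower, and 25.9% had an unadjusted p under 0.05. With so few markers, 0 calls do not show that they were unchanged.

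In these poly(A)-selected libraries HIST rows were low and variant rows high. HIST mRNAs without a tail are not captured, so this does not show that they were scarce in the cells. The summed FPKM of the 45 HIST rows was 20.3, 12.6 and 17.5 in GapNC and 17.4, 13.3 and 23.7 in GapC9, which is 0.00796% to 0.0154% of all FPKM in a library. That of the 19 variant rows was 421.8, 363.6 and 375.6 in GapNC and 397.1, 395.7 and 344.5 in GapC9, or 0.223% to 0.257%. The group means were 16.8 ± 3.91 and 18.2 ± 5.24 for HIST and 387.0 ± 30.7 and 379.1 ± 30.0 for variants (SD, n = 3 libraries each). The libraries of the groups overlapped in both sums. The median of the row means was 0.0755 FPKM over HIST rows and 0.386 over variant rows, against 0.209 over all rows. A mean under 0.1 FPKM was found for 26 of the 45 HIST rows (57.8%), for 9 of the 19 variant rows (47.4%) and for 42.6% of all rows.

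**Figure D1:**
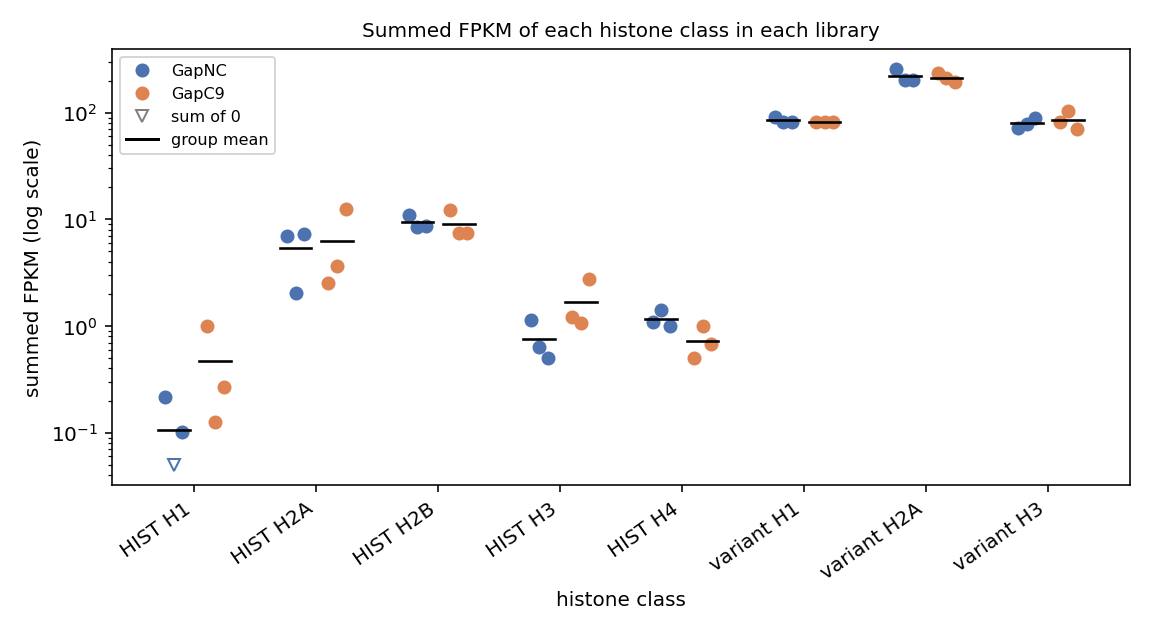
Summed FPKM (log scale) of the HIST rows and of the variant rows of each histone class, 1 point per library, with a line at the mean of the 3 libraries of a group and an open triangle for a sum of 0. The variant sums lie between 70.6 and 258.9, above every HIST sum, and the GapNC and GapC9 points overlap in every class.

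Within each HIST class the GapNC and GapC9 sums overlapped. The H2B rows, the cluster class with the highest sum, summed to 9.36 ± 1.35 FPKM in GapNC and 9.06 ± 2.68 in GapC9. The H2A rows summed to 5.43 ± 2.95 and 6.22 ± 5.48. The H3 rows gave 1.14, 0.639 and 0.499 in GapNC and 1.20, 1.06 and 2.76 in GapC9, and the H4 rows 1.09, 1.42 and 0.990 against 0.507, 1.01 and 0.677. The overlap in H3 came from GapNC replicate 1 and GapC9 replicate 2. The H1 rows were lowest, at 0.215, 0 and 0.101 against 1.0, 0.127 and 0.268, with most of the highest sum from HIST1H1E.

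Detection of the HIST rows was patchy. Between 16 and 28 of the 45 HIST rows were listed at 0 in a library, and 12 rows were above 0 in all 6. A value above 0 need not stand for a whole fragment. Among the 12, HIST1H2BD was at 0.000161 FPKM in GapC9 replicate 3 and HIST1H2BC at 0.00819 in GapC9 replicate 1. Both lie far under the 0.0544 to 0.0583 FPKM of 1 fragment on a row of median length, and the counts that follow include such values. Of the 20 rows with a model that continues past the stem-loop by more than 100 bases, 9 (45.0%) were above 0 in all 6 libraries. Of the 13 rows with a model from start to stop codon, 1 did so (7.69%), and this was HIST1H2BK, whose row in the table rests on an assembled transcript and not on that model. The 100-base limit was chosen after the values were seen, and the rows with continuing models are also longer (median 1681 against 390 bases), so the part of length in this contrast was not tested.

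A row was tested between the groups if its mean was at least 0.1 FPKM, which 19 HIST rows and 10 variant rows reached. In limma on log2(FPKM + 0.1) over 16028 rows, at a Benjamini-Hochberg adjusted p under 0.05, 0 members were higher in GapC9 (background 1.89% of all rows tested) and 2 were lower (background 5.10%). The 2 were H2AFY and HIST1H4E, of which HIST1H4E passed the filter only through GapNC. Over all rows, 303 were higher and 817 lower, and 391 and 505 with median scaling, which moved the median log2 fold change of all rows from −0.08 to 0.02. At the thresholds of the study, group means at least 2-fold apart (a ratio of 2 or more, or 0.5 or less) and an unadjusted p under 0.05, 2 were higher (H2AFJ and HIST1H2AB, background 2.10%) and the same 2 were lower (background 4.32%). Of the HIST rows tested, 4 (HIST1H2AB among them) passed the filter only through GapC9, 3 only through GapNC and 12 through both, and the 10 variant rows passed through both. An unadjusted p under 0.05 was reached by 5 of the 29 members, against 25.9% of all rows tested. In 5 of the 29 the GapNC and GapC9 values did not overlap, against 34.2% of all rows tested. The median log2 fold change was 0.19 over the HIST rows tested, 0.05 over the 15 of them with both groups above 0, and −0.05 over the variant rows, against −0.08 over all rows. Of the HIST rows tested, 11 were listed at 0 in at least 1 library, and rows that pass the filter through 1 group only have to differ, so these medians support no direction.

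**Figure D2:**
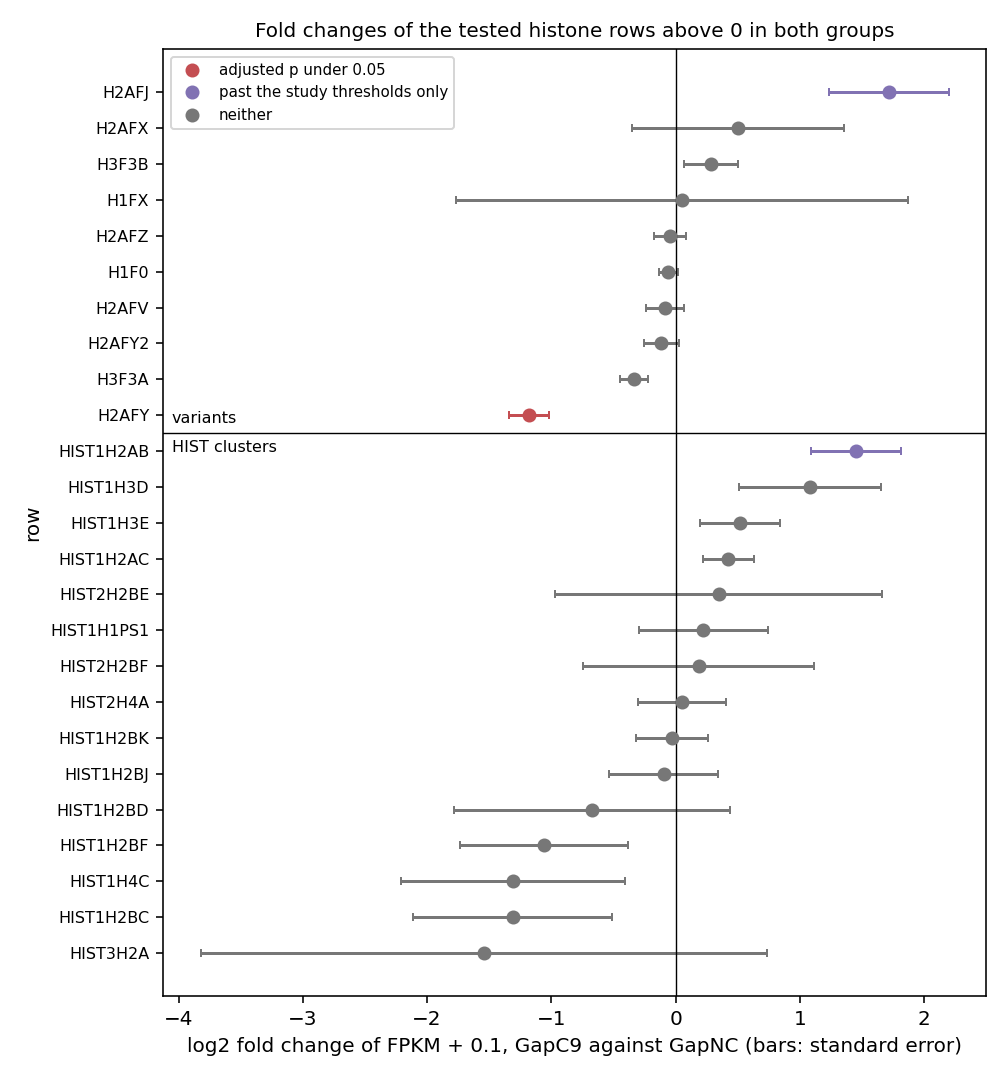
Log2 fold change of FPKM + 0.1 in GapC9 against GapNC for the 25 tested histone rows above 0 in both groups, with bars of 1 standard error and 3 libraries a group. H2AFY at −1.18 is the row past an adjusted p of 0.05, H2AFJ and HIST1H2AB (tested only through its GapC9 values) pass the study thresholds only, and the bars of most other rows cross or come near 0. HIST1H4C (−1.31) and HIST1H2BF (−1.06) were tested only through their GapNC values, so their falls were built in.

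Among the variant genes, H2AFY was lower in GapC9. It encodes macroH2A1, an H2A with a large non-histone domain found on the inactive X chromosome and other silent chromatin. Its values were 12.5, 8.71 and 10.2 FPKM in GapNC and 4.21, 4.50 and 4.86 in GapC9. Every GapC9 library lay below every GapNC library, and the GapC9 values were close together. The means were 10.5 ± 1.93 and 4.53 ± 0.324 FPKM, a ratio of 0.432, and the log2 fold change was −1.18 ± 0.16 (limma, adjusted p = 0.0213). Without GapNC replicate 1 the adjusted p was 0.0303. Without any one of the other 5 libraries it was 0.0571 to 0.0978 and the call was lost, with a log2 fold change of −1.31 to −1.13. Across all rows those 5 fits called between 32 and 122 rows. The H2AFY row sums 19 annotated transcripts (chr5:135333900-135399914, minus strand, GRCh38), and 2 genes on the opposite strand, AC026691.1 and C5orf66, overlap it. The strand used in counting is not stated.

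The closest relative of H2AFY did not follow it past the test. H2AFY2, which encodes macroH2A2, gave 25.7, 19.1 and 19.3 FPKM in GapNC and 20.7, 19.0 and 18.9 in GapC9. The log2 fold change was −0.11 ± 0.14 (limma, adjusted p = 0.656), and the groups overlapped. As a description, H2AFY made up 32.7%, 31.3% and 34.7% of the FPKM of the pair in GapNC and 16.9%, 19.1% and 20.5% in GapC9.

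H2AFJ, an H2A variant known to accumulate in senescent cells, was low in all libraries. It stood at 0.0523, 0.146 and 0.122 FPKM in GapNC and at 0.401, 0.339 and 1.25 in GapC9. All GapC9 values were above all GapNC values, with replicate 3 of GapC9 the highest. The ratio of means was 6.22 and the log2 fold change 1.72 ± 0.48 (limma, unadjusted p = 0.0117, adjusted p = 0.0903), so that it passed the study thresholds and not the adjusted one. Without GapC9 replicate 3 the ratio was 3.46, and the log2 fold change was 0.55 with a pseudocount of 1 and 2.38 with 0.01.

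H3F3A and H3F3B encode the same replacement H3, which is deposited outside replication by HIRA and by DAXX with ATRX. H3F3A gave 25.7, 31.6 and 29.8 FPKM in GapNC and 24.1, 23.0 and 21.5 in GapC9. The GapC9 libraries all lay below the GapNC libraries, with a log2 fold change of −0.34 ± 0.11 (limma, unadjusted p = 0.0243, adjusted p = 0.132). After a correction for GC content the adjusted p was 0.0435, with a log2 fold change of −0.39. This was 1 of 11 other settings to pass, with adjusted p up to 0.293 (limma). With a library left out 0 of 6 fits passed (0.0623 to 0.3). The GC correction raised the calls over all rows from 1120 to 2317.

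H3F3B gave 46.0, 46.3 and 59.5 FPKM in GapNC and 57.3, 81.7 and 49.0 in GapC9. The groups overlapped and GapC9 replicate 2 was the highest, with a log2 fold change of 0.29 ± 0.22 (limma, adjusted p = 0.455). Summed, the 2 genes stood at 79.6 ± 8.98 FPKM in GapNC and 85.6 ± 17.5 in GapC9 (SD, n = 3). H3F3A made up 35.8%, 40.6% and 33.3% of that sum in GapNC and 29.6%, 22.0% and 30.5% in GapC9.

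H2AFZ and H2AFV encode the 2 forms of the variant placed at promoters by the SRCAP and EP400 complexes. H2AFZ had the highest FPKM of all histone rows, at 173.4, 148.2 and 150.0 in GapNC and 168.7, 160.9 and 129.8 in GapC9. H2AFV stood at 15.8, 23.0 and 18.2 FPKM and at 17.5, 18.5 and 17.1. The groups overlapped for both genes. The log2 fold changes were −0.04 ± 0.13 and −0.09 ± 0.15 (limma, adjusted p = 0.867 and 0.764), and both changed sign with median scaling.

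The linker variant H1F0, which accumulates in cells that have stopped dividing, varied little. Its values were 88.8, 81.9 and 81.7 FPKM in GapNC and 82.3, 78.7 and 81.5 in GapC9. The log2 fold change was −0.06 ± 0.08 (limma, adjusted p = 0.687), a sign that turned with median scaling. The other linker variant, H1FX, was listed at 2.38, 0 and 0 FPKM in GapNC and at 0, 2.65 and 0 in GapC9. One library of each group thus held all of its signal. The antisense RNA H1FX-AS1, which overlaps it, lay between 0.0298 and 0.0365 FPKM in all 6 libraries.

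H2AFX varied more within the groups than between them. It gave 31.2, 4.52 and 6.29 FPKM in GapNC and 21.4, 5.94 and 20.0 in GapC9. GapNC replicate 1 and GapC9 replicates 1 and 3 were high, and the other 3 libraries were low. The log2 fold change was 0.50 ± 0.85 (limma, adjusted p = 0.752), and its GC content was 66.4% against a median of 48.6% over all rows. The same 3 libraries were high for LSM10, a subunit of the U7 snRNP, at 20.1, 0.878 and 0.307 FPKM in GapNC and 11.4, 0.308 and 11.4 in GapC9, so that neither gene separated the groups.

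By level, the variants ran from H2AFZ through H1F0, H3F3B, H3F3A, H2AFY2, H2AFV, H2AFX and H2AFY to H1FX and H2AFJ. Over the 6 libraries H2AFZ did not overlap any other row. H1F0 and H3F3B overlapped, as did H3F3A, H2AFY2 and H2AFV, and H2AFX overlapped H2AFY, H2AFV, H2AFY2 and H3F3A. The 9 variant rows under the filter had means of 0.00909 to 0.0791 FPKM. One of these, H2AFB1, was named after its values were seen: it gave 0.0125, 0 and 0.0346 FPKM in GapNC and 0.0723, 0.0528 and 0.108 in GapC9, without overlap. The row was not tested, and 34.2% of all rows tested did not overlap either. On its 587-base model 1 fragment is worth more than the 0.0544 to 0.0583 FPKM of a 753-base row. Its GapNC values thus lie under 1 fragment, and its GapC9 values rest on very few. H2AFB1 is 1 of 3 near-identical genes on chromosome X and lies within F8 on the opposite strand. H2AFB2 and H2AFB3, the other copies, were listed at 0 in 3 and 4 libraries.

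**Figure D3:**
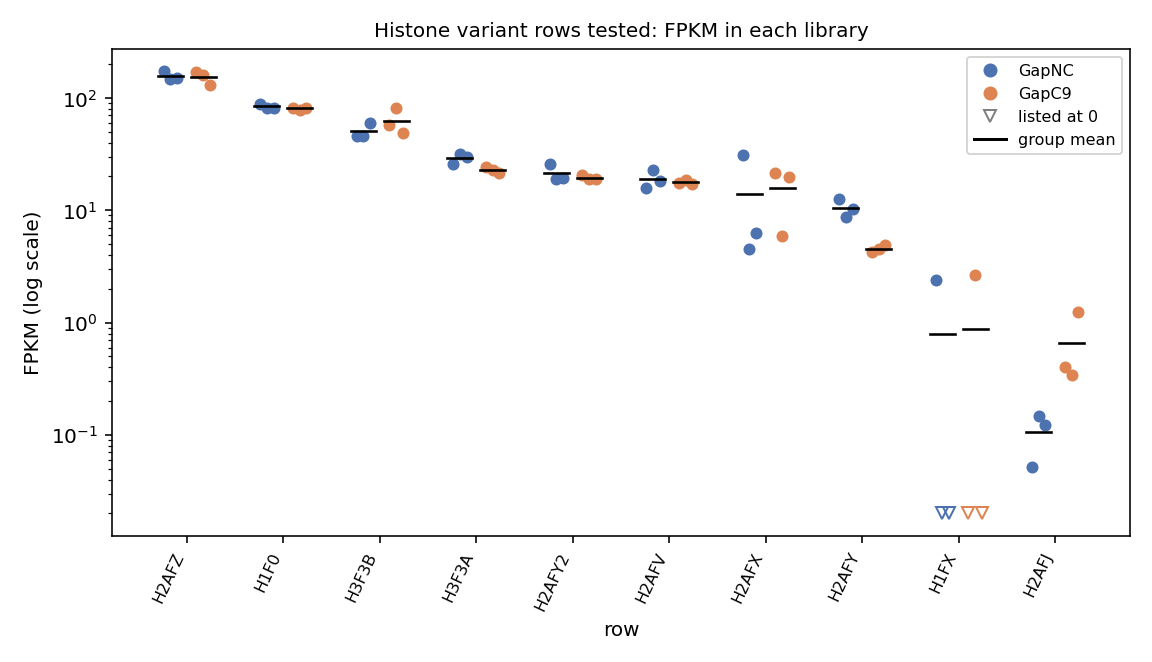
FPKM (log scale) of the 10 tested histone variant rows, ordered by mean, with 1 point per library, a line at the group mean and an open triangle where a row is listed at 0. The GapC9 points of H2AFY (4.21 to 4.86) lie below its GapNC points (8.71 to 12.5), those of H2AFJ lie above, and H2AFX splits within both groups.

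Among the HIST genes, HIST1H4E, 1 of the many genes for the same H4 protein, was the row past the adjusted threshold, but it entered the test only because its GapNC values were high, so a difference was built in and the call supports nothing. It gave 0.118, 0.401 and 0.383 FPKM in GapNC and was listed at 0 in all 3 GapC9 libraries (limma, adjusted p = 0.0443). No fold is given against a group listed at 0. Its 1487-base model holds 1022 bases past the stem-loop shown above. The adjusted p was 0.0234 without GapNC replicate 1 and 0.103 to 0.136 without any one of the other 5 libraries, where the call was lost. It was 0.0731 with a pseudocount of 1, 0.0664 without a filter and 0.0514 with median scaling, and thus no longer past the threshold. H4 genes are near-identical in their coding part, and how reads were shared between them is not stated.

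HIST1H2AB, an H2A gene, went the other way without passing the adjusted threshold, and it too entered the test only through its high group, GapC9. It was listed at 0, 0.109 and 0 FPKM in GapNC and gave 0.220, 0.263 and 0.269 in GapC9. All GapC9 libraries lay above all GapNC libraries, but each value corresponds to few fragments on a 393-base model. The ratio of means was 6.90 and the log2 fold change 1.45 ± 0.36 (limma, unadjusted p = 0.00684, adjusted p = 0.0682). The ratio was 4.6 without GapNC replicate 1 or 3, and without replicate 2 its GapNC values were all listed at 0. The log2 fold change was 0.27 with a pseudocount of 1 and 3.51 with 0.01. With a correction for GC content the adjusted p was 0.0460, the 1 of 9 other settings to pass (limma, adjusted p up to 0.118). With a library left out 0 of 6 fits passed.

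The 3 HIST rows above 1 FPKM were HIST1H2BK, HIST3H2A and HIST1H2AC. HIST1H2BK gave 7.43, 7.08 and 6.96 FPKM in GapNC and 11.3, 5.57 and 5.50 in GapC9. Its GapC9 values lay on both sides of the GapNC values, with a log2 fold change of −0.03 ± 0.29 (limma, adjusted p = 0.967), a sign that turned with median scaling. HIST1H2AC gave 2.42, 1.92 and 2.14 FPKM in GapNC and 2.19, 3.35 and 3.37 in GapC9. Replicates 2 and 3 of GapC9 were above all GapNC libraries and replicate 1 was not, with a log2 fold change of 0.42 ± 0.20 (limma, adjusted p = 0.252). HIST3H2A was listed at 4.29, 0 and 4.42 FPKM in GapNC and at 0, 0 and 7.90 in GapC9, so that 3 of its 6 values were 0 (limma, adjusted p = 0.708).

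Of the other rows with the highest mean of their class within a cluster, HIST1H3E (H3) was above 0 in every library. It gave 0.269, 0.592 and 0.490 FPKM in GapNC and 0.822, 0.451 and 0.775 in GapC9, with overlap (log2 fold change 0.52 ± 0.32; limma, adjusted p = 0.365). HIST1H4C, the H4 row with the highest mean in HIST1, gave 0.403, 0.786 and 0 against 0, 0 and 0.194 (limma, adjusted p = 0.411). It passed the filter only through GapNC. The linker histone gene HIST1H1E was above 0 in GapC9 replicate 1 only, at 0.864 FPKM. In the HIST2 cluster, HIST2H2BE was above 0 only in GapNC replicate 3 (0.605) and GapC9 replicate 2 (1.35). HIST2H4A, which has a near-identical copy in HIST2H4B, gave 0.235, 0.117 and 0.357 against 0.163, 0.219 and 0.340 (limma, adjusted p = 0.947). HIST2H3D reached 0.452 FPKM in GapC9 replicate 2 and did not exceed 0.0446 elsewhere. HIST3H2BB gave 0.184, 0.217 and 0 in GapNC and 0.0368, 0.0525 and 0.0402 in GapC9, and HIST4H4 lay between 0.0341 and 0.151 in all 6 libraries.

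Several HIST rows changed between libraries of 1 group by more than between groups. HIST1H2BD and HIST1H2BC, named here after their values were seen, show it. HIST1H2BD gave 1.09, 0.0667 and 0.0467 FPKM in GapNC and 0.587, 0.00432 and 0.000161 in GapC9, high in replicate 1 of both groups. HIST1H2BC gave 1.52, 0.600 and 0.315 against 0.00819, 0.352 and 0.530. HIST1H3H and HIST1H2AI, chosen in the same way, were above 0 in GapC9 replicate 3 only, at 1.43 and 0.839 FPKM. GapC9 replicate 3 had the fewest HIST rows at 0 (16) and GapNC replicate 2 the most (28). The 26 HIST rows under the filter had means of 0.00594 to 0.0939 FPKM, and HIST1H2BE, HIST1H2BN, HIST1H4H and HIST4H4 were those of them above 0 in all 6 libraries.

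**Figure D4:**
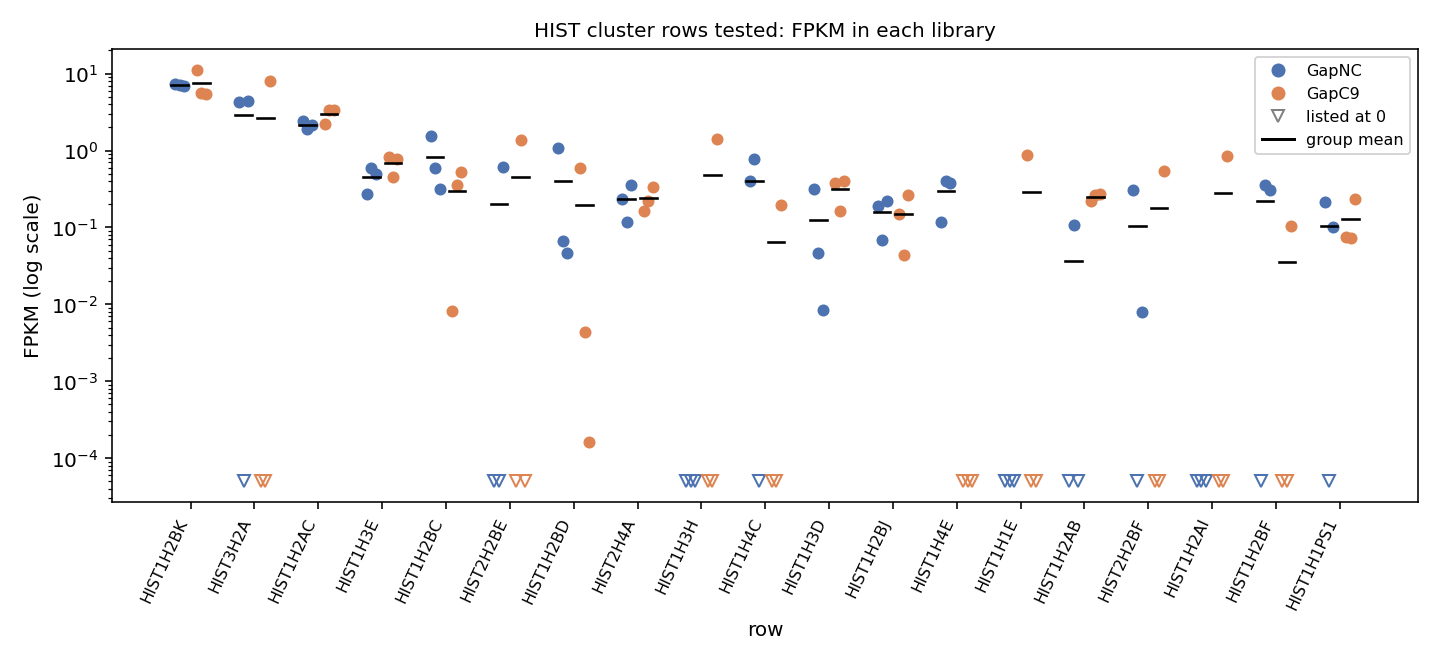
FPKM (log scale) of the 19 tested HIST rows, ordered by mean, with 1 point per library, a line at the group mean and an open triangle where a row is listed at 0. HIST1H4E has 3 GapNC points and 3 GapC9 triangles, and 11 of the 19 rows have at least 1 triangle.

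The genes that act on histone mRNAs and proteins were read from fixed lists, to be set against 1.89% of all rows tested called higher, 5.10% called lower and 25.9% with an unadjusted p under 0.05. Of 18 tested genes for 3′ end processing of histone mRNAs, 0 were called in either direction at the adjusted threshold (limma; 2 had an unadjusted p under 0.05), with a median log2 fold change of 0.0049. CPSF3 itself gave 16.3, 20.6 and 18.9 FPKM in GapNC and 14.8, 14.4 and 16.2 in GapC9. These values did not overlap, but the log2 fold change of −0.29 ± 0.12 had an adjusted p of 0.197 (limma). SLBP, which binds the stem-loop, gave 35.6, 39.5 and 35.1 against 30.9, 33.2 and 34.3 (log2 fold change −0.16 ± 0.09; limma, adjusted p = 0.329). LSM11, the partner of LSM10 in the U7 snRNP, gave 3.43, 3.46 and 3.81 against 3.73, 1.65 and 0.985 (adjusted p = 0.253, limma). CASP8AP2 (FLASH) gave 2.90, 3.92 and 3.95 against 3.53, 4.25 and 4.10 (adjusted p = 0.611, limma).

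Of 12 genes for transcription of the histone genes, 3 were lower in GapC9 and 0 higher (limma, adjusted p under 0.05; 5.10% and 1.89% of all rows). An unadjusted p under 0.05 was reached by 4 of the 12, against 25.9% of all rows tested. NPAT, the coactivator of the HIST clusters, gave 2.15, 2.77 and 2.83 FPKM in GapNC and 1.43, 1.40 and 1.53 in GapC9 (log2 fold change −0.78 ± 0.15; adjusted p = 0.0377). CDK2, the kinase that activates NPAT with cyclin E, fell by 0.63 ± 0.12 on the log2 scale (adjusted p = 0.0421), from a mean of 31.3 to 20.2 FPKM. This call was lost in each of the 6 fits with a library left out (adjusted p 0.0584 to 0.146). CDC25A, the phosphatase that activates CDK2, fell by 0.77 ± 0.09 (adjusted p = 0.0166), from 15.0 to 8.75 FPKM. The groups did not overlap for these 3 genes, nor for 34.2% of all rows tested. The 3 were named because they were called, so this adds no support. None of the 3 reached a ratio of 0.5, and the count was 1 with median scaling and 0 at the study thresholds. The median of the list was −0.15, against −0.08 over all rows.

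Of 40 tested rows for histone chaperones and deposition, 6 were lower and 0 higher (limma, adjusted p under 0.05; 5.10% and 1.89% of all rows), with a median log2 fold change of −0.09. An unadjusted p under 0.05 was reached by 16 of the 40, against 25.9% of all rows tested. CABIN1, a subunit of the HIRA complex, fell by 1.14 ± 0.16 on the log2 scale, from 6.57 to 2.90 FPKM (adjusted p = 0.0221). NAP1L4, an H2A and H2B chaperone, fell by 1.13 ± 0.14, from 25.6 to 11.6 FPKM (adjusted p = 0.0182). ASF1B, an H3 and H4 chaperone, fell by 0.66 ± 0.13 (adjusted p = 0.0454). EP400 and RUVBL1, which act in the exchange of H2AFZ, fell by 0.55 ± 0.12 and 0.59 ± 0.10 (adjusted p = 0.0473 and 0.0314). The sixth row joins VPS28 and TONSL, so its fall of 1.16 ± 0.21 (adjusted p = 0.0351) cannot be given to TONSL, a reader of new H4, alone. EP400 lost its call in each of the 6 fits with a library left out (adjusted p 0.07 to 0.164). The lower count was 3 without a filter and with limma without trend. At the study thresholds 4 rows were lower and 1 higher: CABIN1, NAP1L4 and the joined row again, UBN2, and MIS18A. The last 2 were named after their values were seen. UBN2, a subunit of the HIRA complex, gave 1.52, 2.0 and 2.24 FPKM in GapNC and 0.428, 0.358 and 1.06 in GapC9, without overlap (log2 fold change −1.61 ± 0.38; limma, unadjusted p = 0.00557, adjusted p = 0.0622). MIS18A, which acts in the loading of centromeric H3, was the higher row, at 3.42, 10.1 and 9.77 FPKM against 18.1, 17.0 and 13.1 (limma, adjusted p = 0.162).

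The decay and cell cycle lists held few calls. Of 9 genes for decay of histone mRNA, 0 were called (limma; 5 had an unadjusted p under 0.05), with a median log2 fold change of 0.22. Of 23 S phase rows 8 had an unadjusted p under 0.05 (limma; 25.9% of all rows tested), with a median log2 fold change of −0.16. At the adjusted threshold 1 was lower (5.10% of all rows tested), POLA1, the catalytic subunit of DNA polymerase alpha. It gave 6.73, 7.42 and 7.63 FPKM in GapNC and 3.27, 3.34 and 4.15 in GapC9 (log2 fold change −1.0 ± 0.13; limma, adjusted p = 0.0210). Of 16 G2 and mitosis genes, 0 were called (limma; 4 had an unadjusted p under 0.05), with a median of −0.06. In bulk RNA, fewer cells in a phase and less RNA per cell cannot be told apart. Without any one of the 5 libraries other than GapNC replicate 1, the counts of lower genes in the transcription, chaperone and S phase lists were 0. Without GapNC replicate 1 they were 2, 6 and 1, and CDK2 and EP400 were not among them.

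**Figure D5:**
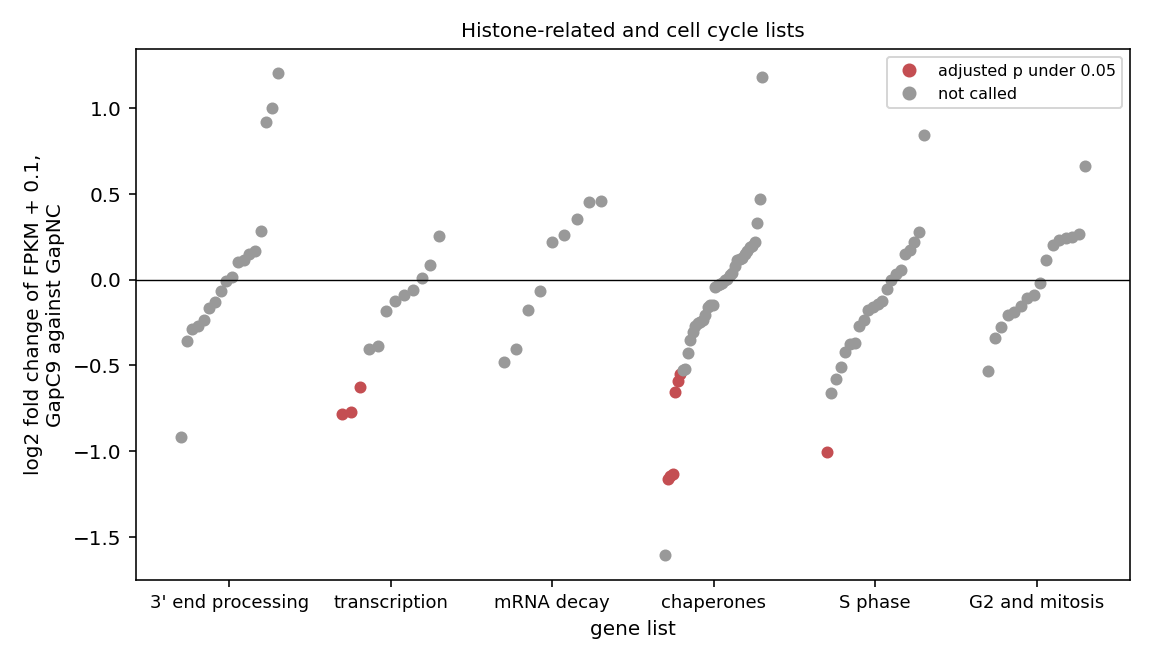
Log2 fold change of FPKM + 0.1 in GapC9 against GapNC for the tested members of the 6 lists, 1 point per gene symbol, ordered by value within a list and colored where the adjusted p is under 0.05. TYMS has 2 tested rows in the S phase list: the row at −0.14 is shown and the row at −2.07 (limma, adjusted p = 0.587) is not. The colored points are 3 in the transcription list, 6 in the chaperone list and 1 in the S phase list, all below 0.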

How the data were processed

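HCT-116 poly(A) RNA was sequenced in 6 libraries, 3 per GapmeR, grouped by the sample labels. The authors deposited FPKM values per gene computed with StringTie after HISAT alignment (StringTie 1.3.0 and HISAT2 2.0 in the submitters' processing notes); no counts were used here. The genome build that applies is not given in the sources used here, and identifiers were matched to GENCODE v29 (GRCh38), 63 of the 64 members through listed transcripts and HIST1H2BK by symbol. In the row HIST1H3D the matched gene carries another name (AL031777.3) and overlaps HIST1H2AD and HIST1H1PS1. FPKM is relative to all mapped fragments, so abundant RNAs can lower the rest, and assembly can list a row at 0 in 1 library only.

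In R 4.3.3, limma 3.58.1 (mean-variance trend) was fitted to log2(FPKM + 0.1) over the 16028 rows with a mean of at least 0.1 FPKM, all 6 libraries in 1 fit, with Benjamini-Hochberg adjustment over all of them. Errors of fold changes are standard errors and those of means are SDs. On simulated data of 16028 rows the fit recovered 73 of 100 changes of 1 and 97 of 100 of 2 (log2), with 12 false calls. Whether these rates hold for the 6 libraries was not tested. Counting error could not be computed from FPKM. Tables and figures were made with Python 3.11.15, pandas 2.3.3 and matplotlib 3.10.9.

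The members, gene lists and tests were chosen with earlier results of these data known. Named genes are members called by either rule, variant rows of at least 0.1 FPKM, the most abundant member of each HIST cluster and class, called genes of the lists, and CPSF3, SLBP, LSM10, LSM11, NPAT and CASP8AP2; exceptions are marked. The alternatives were pseudocounts of 1 and 0.01, filters (at least 1 FPKM, none, no row listed at 0), median and quantile scaling, limma without trend or robust, a GC correction, a replicate block, each library left out, and the study thresholds. Protein sequences were not used here.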

Additional observations from a re-analysis of the deposited data

How the results depend on the processing

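Each library was left out in turn. The count of lower genes then ranged from 0 to 1 for HIST rows, from 0 to 1 for variant rows, from 0 to 2 for the transcription list, from 0 to 6 for the chaperone list and from 0 to 1 for the S phase list. The median log2 fold change ranged from −0.17 to 0.29 for HIST rows, the lowest without GapNC replicate 2. Over all rows, 810 calls were made without GapNC replicate 1 and 32 to 122 without any other library. The deviations of same-numbered replicates of the groups correlated weakly (0.097, 0.0398 and 0.0243). Those of differently numbered replicates correlated at −0.093 to 0.0578. The labels state no pairing and none was assumed, but these values do not exclude a weak one. With a replicate block 0 rows were called, including 0 in every list and 0 members (limma, H2AFY adjusted p = 0.0618, HIST1H4E 0.0783).

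The HIST count of lower rows was also 0 with a pseudocount of 1, at a filter of 1 FPKM, with no filter, with no row listed at 0, and with median or quantile scaling, against 1. The HIST count of higher rows was 1 with the GC correction and at the study thresholds, and the variant count of higher rows was 1 at the study thresholds. The GC correction gave 2 lower variant rows. The variant median was 0.13 with no filter, 0.0620 with median scaling and 0.0715 with the GC correction, against −0.05. With the GC correction the higher and lower counts were 1 and 2 for 3′ end processing, 2 and 1 for decay, 1 and 1 for G2 and mitosis, 1 and 2 for S phase, and 3 and 9 for chaperones, while over all rows they were 1089 and 1228, against 303 and 817. The transcription list had 1 lower gene with no filter, median or quantile scaling, and 0 at the study thresholds. The chaperone list had 3 lower with no filter and with limma without trend, and 1 higher at the study thresholds. The S phase list had 2 lower at a filter of 1 FPKM, with no row listed at 0 and with quantile scaling, and the decay list 1 lower at a filter of 1 FPKM. The causes were not tested.

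Signs turned for small changes: H2AFY2 (0.0434) with the GC correction, H2AFZ (0.0687 and 0.0419) and H1F0 (0.0553 and 0.0995) with median scaling and GC correction, H2AFV (0.0254) with median scaling, and HIST1H2BK with median (0.0830) and quantile scaling (0.0672). With a library left out, the log2 fold change ranged from −0.19 to 0.0267 for H2AFY2, −0.12 to 0.0713 for H2AFZ, −0.21 to 0.0605 for H2AFV, −0.0385 to 1.34 for H2AFX, −1.54 to 1.59 for H1FX, −0.36 to 0.15 for HIST1H2BK, −0.94 to 1.29 for HIST2H2BE, −0.23 to 0.30 for HIST2H4A and −0.23 to 2.58 for LSM10. No member shares a row with another gene, so leaving out joined loci changed nothing. Depth limits the HIST rows, where a value near 0.05 FPKM is about 1 fragment.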
